A study of Mus musculus with 3 samples.

Results

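The class named immature erythrocytes in the depositors' annotation holds 150 of the 12668 cells in a study of immune cells in the mouse brain. Its members are all cells that carry this name in the final cell type annotation, 19 from the library without tumor, 125 from the LGG library and 6 from the HGG library. Cells were isolated with a CD45 positive selection kit after papain digestion and profiled by droplet single-cell RNA sequencing, with 1 library per group. The libraries are no tumor with a labelled age of 0 to 2 weeks, LGG (low grade glioma) at 3 to 4 weeks and HGG at 6 to 8 weeks. All tissue, tumor or a normal piece of like size, came from the injected right hemisphere. For the library labelled HGG the sample title reads no tumor, so every direction drawn from it rests on its library name and description. Age, library and group cannot be told apart, the number of animals behind a library is not given in the sources used here, and without replicates no test between groups exists.

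Red blood cells arise from nucleated erythroid precursors that stop dividing, expel the nucleus and become reticulocytes, which then lose their mitochondria and ribosomes. During this course the globin messages, among them Hbb-bs (adult beta globin) and Hba-a1 (adult alpha globin), come to make up most of the remaining RNA, and most other genes fall silent. CD45, the leukocyte surface protein used here for selection, is lost from erythroid cells as they mature, and blood left in vessels is a usual companion of brain tissue. The deposited table gives totals and names per cell and no value per gene. Neither globin could therefore be read, and the name could be set only against UMIs (unique transcript molecules), detected genes, mitochondrial and ribosomal percent, phase scores, clusters and other deposited labels. Since the name itself comes from the expression of these same cells, all differences from other cells are descriptions with no test.

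Most cells of the class carried many UMIs from very few genes. Over the 3 libraries, 99 of the 150 cells (66.0%) had a complexity, the ratio log10(genes)/log10(UMIs), under 0.8, against 83 of 12518 other cells (0.663%). These 99 cells had a median of 15578 UMIs from 256 genes, or 56.4 UMIs per detected gene, with a range of 6.42 to 120.7. They were not uniform, as 9 of the 99 had 1000 or more genes, with up to 5462. Among all other cells the median was 3.52 UMIs per gene and the highest value 12.5. More than 20 UMIs per gene were found in 85 cells of the class and in 0 of the 12518 others, which allows a share of up to 0.0240% there. A complexity under 0.7 was found in 88 class cells and in 1 other cell, a microglia-named cell of HGG.

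The remaining 51 cells split at 1000 UMIs into 2 profiles with no cell between 898 and 1145 UMIs. The first, 24 deep cells, had a median of 10235.5 UMIs and 2423.5 genes, or 4.43 UMIs per gene. The second, 27 shallow cells, had a median of 608 UMIs and 401 genes, or 1.46 UMIs per gene. The border at a complexity of 0.8 was less clear, with 15 class cells within 0.025 of it, the nearest at 0.796 below and 0.802 above. The 3 profiles are thus ranges of these measures and not cell types.

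**Figure D1:**
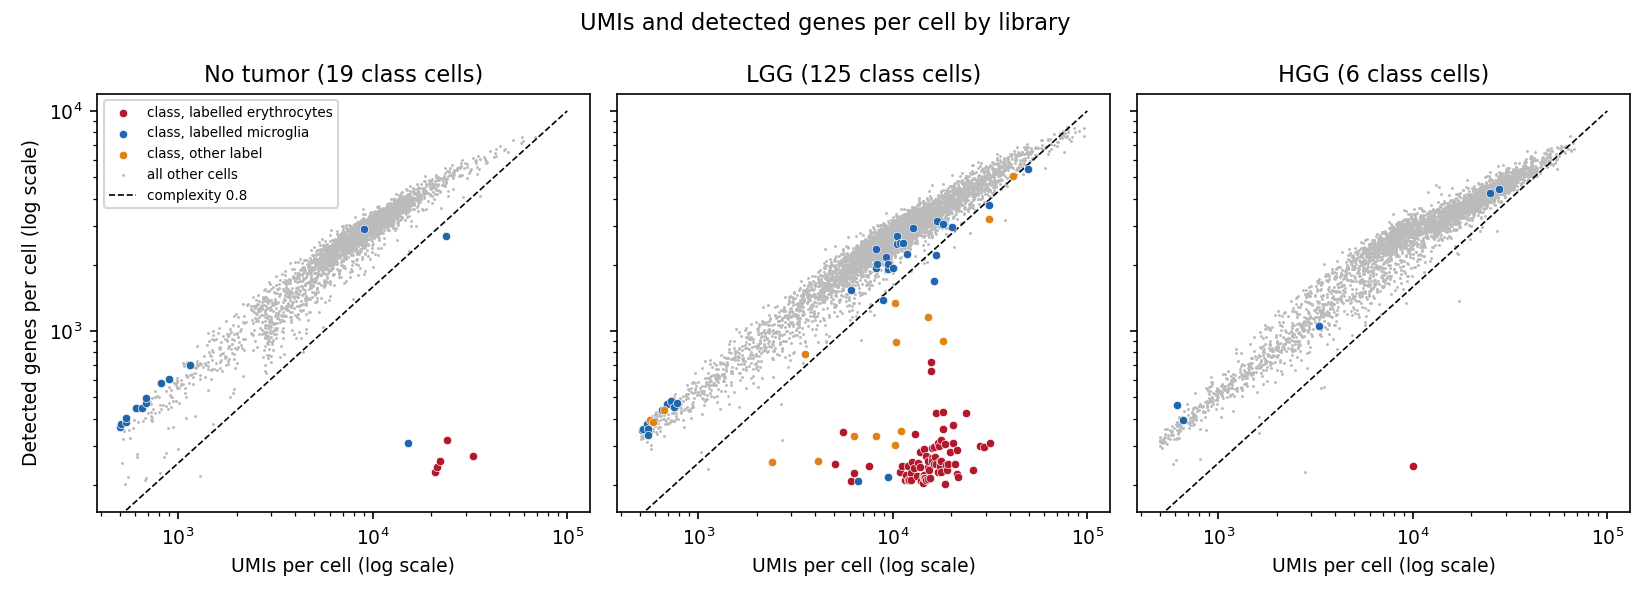
UMIs per cell (x axis, log scale) against detected genes per cell (y axis, log scale) in the libraries without tumor, LGG and HGG. Each point is a cell, class cells colored by the second SingleR label and other cells in grey, and the dashed line is a complexity of 0.8. Class cells labelled erythrocytes lie in a flat band of 202 to 725 genes far under the grey cells of the same depth.

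Without tumor, 7 of 19 cells (36.8%, exact interval 16.3 to 61.6%) had low complexity, 2 were deep and 10 shallow. In the LGG library 91 of 125 cells (72.8%, 64.1 to 80.4%) had low complexity, 19 were deep and 15 shallow. In HGG, 1 of 6 cells had low complexity, 3 were deep and 2 shallow. Most shallow cells could not have had low complexity, since every cell in the table has at least 201 genes. Among cells with at least 1000 UMIs, which leaves out the shallow cells, the low-complexity share was 82.7% in LGG (74.3 to 89.3%) and 77.8% without tumor (40.0 to 97.2%), with overlapping intervals. Intervals here and below are 95% intervals for counting error only, exact (Clopper-Pearson) for shares and Katz log for ratios of shares, and do not cover variation between animals.

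The larger share of the class in LGG lay mostly in the low-complexity cells. As a share of all cells, the low-complexity profile stood at 1.81% in LGG (1.46 to 2.22%) and 0.198% without tumor (0.0794 to 0.407%), a ratio of 9.17 (4.26 to 19.8). The other 2 profiles together stood at 0.677% in LGG (0.469 to 0.944%) and 0.339% without tumor (0.175 to 0.591%), a ratio of 2.00 (1.04 to 3.85) with overlapping exact intervals. For the class as a whole the ratio was 4.64 (2.87 to 7.51). Shallow cells alone were at 0.299% in LGG and 0.282% without tumor. In HGG, the low-complexity profile was 1 of 4100 cells, 0.0244% (0.000618 to 0.136%), against 1.81% in LGG, a ratio of 0.0135 (0.00188 to 0.0966). The other profiles stood at 0.122% in HGG against 0.677% in LGG (ratio 0.180, 0.0705 to 0.460). For HGG against no tumor, the ratio was 0.123 (0.0152 to 1.003) for the low-complexity profile, 0.360 (0.127 to 1.02) for the others and 0.273 (0.109 to 0.683) for the class. The ratio of LGG to no tumor was 1.48 (0.921 to 2.38) with cells other than microglia as the denominator. Microglia were 41.0% of all cells in LGG and 81.2% without tumor, and their part in the ratio over all cells was not tested.

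**Figure D2:**
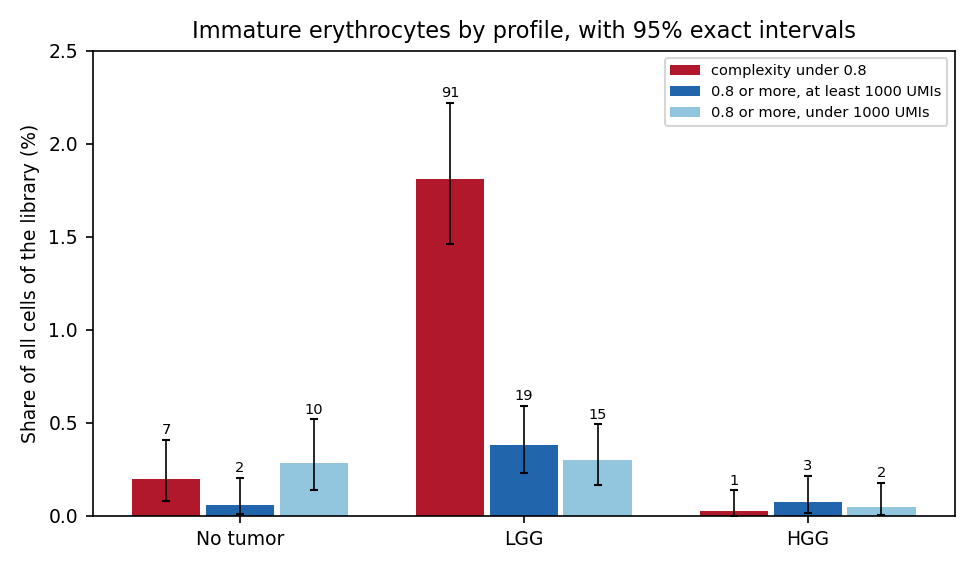
Share of all cells of each library (y axis, percent) that fell into the 3 profiles of the class, for no tumor, LGG and HGG. Bars are shares, error bars exact 95% intervals and numbers the cells, and the low-complexity bar of LGG (91 cells, 1.81%) stands above every other bar.

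Summed over its cells, the class supplied 0.540% of the UMIs without tumor (176654 of 32685080), 2.73% in LGG (1680711 of 61554429) and 0.109% in HGG (67378 of 61872213). The low-complexity cells supplied 0.490% of the UMIs without tumor, 2.33% in LGG and 0.0163% in HGG. They made up most of the UMIs of the class without tumor and in LGG, while in HGG 2 deep cells held most. The median cell of the class carried 14053 UMIs and 302 genes in LGG, with quartiles of 9240 to 17367 UMIs and 240 to 481 genes. Without tumor it carried 898 UMIs and 401 genes, with quartiles of 630.5 to 21171 UMIs, a spread in which shallow and low-complexity cells stand at opposite ends. The low-complexity cells themselves were deep in both libraries, at a median of 15264 UMIs and 254 genes in LGG and 22132 UMIs and 270 genes without tumor. These ranges overlapped, from 2397 to 49587 UMIs in LGG and from 15122 to 32595 without tumor.

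The 6 HGG cells can be given singly. The cell of low complexity had 10083 UMIs from 244 genes, the only one of the 6 that the second SingleR label named an erythrocyte. The deep cells had 25089 UMIs from 4218 genes, 27637 from 4440 and 3294 from 1059. The shallow cells had 615 UMIs from 460 genes and 660 from 393. Only 1 of the 6 thus resembled the main part of the LGG class in UMIs per gene, at 41.3 against an LGG low-complexity median of 55.6.

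Set beside other cells of the same library with UMIs within 10% of their own, the low-complexity cells had fewer genes, as the limit that chose them requires, and the values below give only the size of the gap. In LGG they had a median of 254 genes, against 3315.5 in other cells of that depth, and the median ratio was 0.0794. Without tumor the values were 270 and 4670.5 genes, with a median ratio of 0.0552. In the 3 libraries, 97 of the 99 low-complexity cells had fewer genes than every other cell in their range. For the deep cells the limit likewise sets a lower bound on genes. Most shallow cells had too few UMIs to fall under it, as every cell in the table has at least 201 genes. In LGG the 19 deep cells had 2358 genes against 2796.5 in other cells of that depth (median ratio 0.830), and all 19 ratios were under 1, from 0.587 to 0.980. In LGG the shallow cells had 394 against 365.5 (median ratio 1.08). Of the 51 cells of these profiles, 0 had fewer genes than every other cell of similar depth.

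The gene count of the class also ran into the lower limit of the table, where the cell with the fewest genes has 201. In all, 44 class cells had fewer than 250 genes, each with at least 5000 UMIs, and 18 had fewer than 220. Among the other 12518 cells, 9 had fewer than 250 genes, the deepest with 2803 UMIs. How many cells with fewer genes were removed before deposit, and what share of them was of this class, was not tested. The 21 cells named platelets, blood cells that lack a nucleus, had a median of 1033 UMIs and 363 genes, and 0 of 21 were under a complexity of 0.8 (exact interval up to 16.1%). Platelets reached 7942 UMIs at most, against a median of 15578 in the low-complexity cells, so depth differs between them. With 201 genes or more, the shallowest platelets could not fall under 0.8.

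Mitochondrial UMIs were scarce in most low-complexity cells, though the share reached 4.68% in LGG. The median over all low-complexity cells was 0.0949% without tumor, against 2.33% in all other cells of that library. It was 0.111% in LGG, against 3.36% in other cells. The HGG cell had 0.109%, against a median of 4.13% in other cells. Under 0.5% mitochondrial UMIs were found in 79 of 91 low-complexity LGG cells (86.8%, 78.1 to 93.0%), against 227 of 4899 other LGG cells (4.63%, 4.06 to 5.26%). Without tumor this held for 7 of 7 low-complexity cells and 162 of 3525 others (4.60%, 3.93 to 5.34%). A percent falls when a few genes fill the total, so the number of mitochondrial UMIs was computed as well. It was a median of 18 per low-complexity LGG cell, with quartiles of 10 and 35, against 317 per other LGG cell, with quartiles of 175 and 574. Compared with other cells of similar depth, 98 of the 99 low-complexity cells had a lower mitochondrial percent than the median.

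The other profiles varied. The deep cells of LGG had a median of 2.35% and 221 mitochondrial UMIs, and the shallow cells 2.57% and 16 UMIs. Under 0.5% were 1 of 12 cells of these profiles without tumor, 0 of 34 in LGG (exact upper bound 10.3%) and 2 of 5 in HGG, 1 of them at 0.0607%, below the low-complexity HGG cell. Over the 3 libraries, 20 of 24 deep cells had a lower mitochondrial percent than the median of other cells of their depth, and 8 of 27 shallow cells did. The percent of UMIs in the set headed ribosomal had a median of 0.00709% in low-complexity LGG cells, with quartiles of 0 and 0.0187%. That median was 0.372% in all LGG cells outside the class, 0.257% in the deep and 0.299% in the shallow LGG cells. As with the mitochondrial percent, this percent falls when a few genes fill the total, and ribosomal UMIs were not counted. The genes behind that set are not stated, and since it never exceeds 1.85% in the table it does not stand for all ribosomal protein genes.

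**Figure D3:**
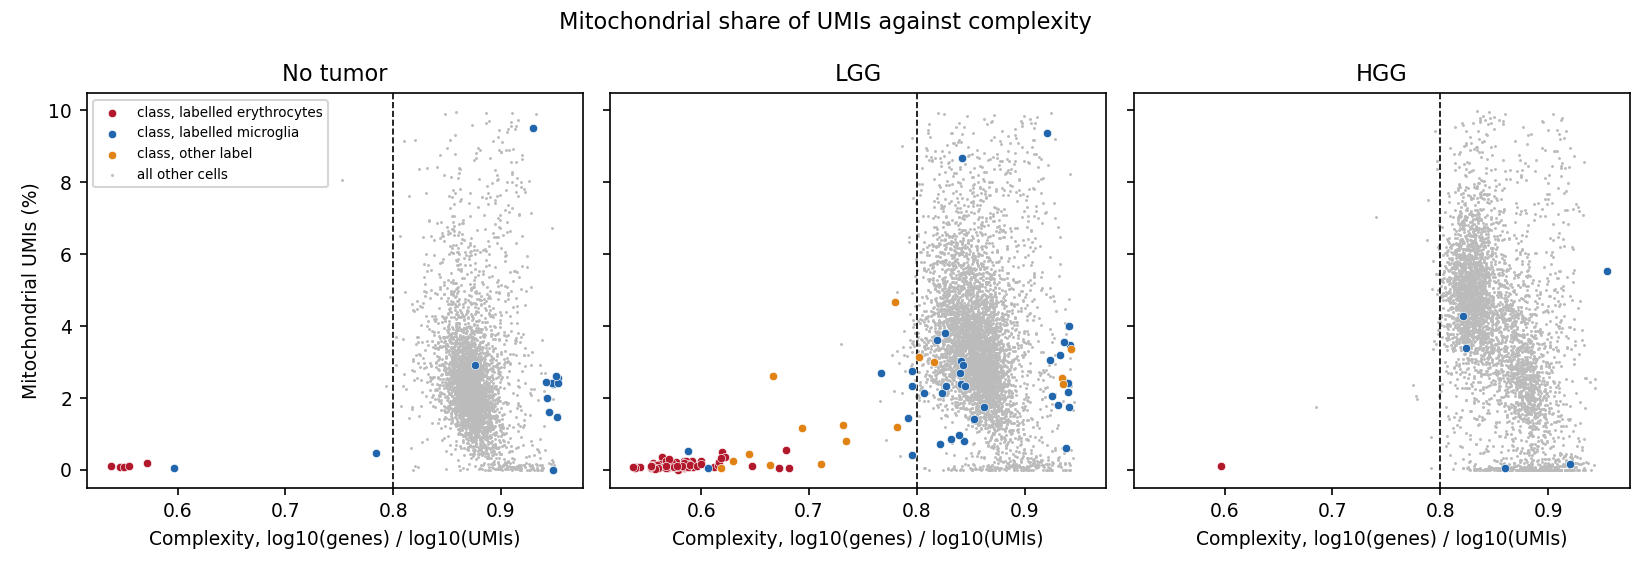
Complexity (x axis) against the mitochondrial share of UMIs (y axis, percent) per cell in the libraries without tumor, LGG and HGG. Class cells are colored by the second SingleR label, other cells are grey and the dashed line is 0.8, and the cells labelled erythrocytes lie at the lower left, none above 0.561%.

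The second SingleR label, which names each cell by its likeness to reference profiles, divided the class along the same line. It named 79 of the 150 cells erythrocytes and 55 microglia, the resident macrophages of the brain. The other 16 were named macrophages (12), monocytes (3) and T cells (1), all of them in LGG. Every one of the 79 cells labelled erythrocytes had low complexity, at most 0.682. Of the 55 labelled microglia 9 had low complexity, 22 were deep and 24 shallow. By library, erythrocytes were 5 of 19 class cells without tumor (26.3%, 9.15 to 51.2%), 73 of 125 in LGG (58.4%, 49.2 to 67.1%) and 1 of 6 in HGG (16.7%, 0.421 to 64.1%). Among cells with at least 1000 UMIs, erythrocytes were 66.4% of the class in LGG (56.7 to 75.1%) and 55.6% without tumor (21.2 to 86.3%), with overlapping intervals. Over all class cells, microglia were 14 without tumor (73.7%), 36 in LGG (28.8%) and 5 in HGG (83.3%).

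Within LGG, cells labelled erythrocytes had a median of 15661 UMIs and 248 genes, and cells labelled microglia 9076.5 UMIs and 1921.5 genes. The range was 202 to 725 genes in cells labelled erythrocytes and 209 to 5462 in cells labelled microglia, so the label did not separate the cells by genes alone. Cells labelled erythrocytes had 60.5 UMIs per gene, 0.0943% mitochondrial UMIs and 14 such UMIs per cell. Cells labelled microglia had 4.25 UMIs per gene, 2.34% and 97.5. Without tumor, the 5 cells labelled erythrocytes had between 20967 and 32595 UMIs and between 230 and 320 genes. The 14 labelled microglia there had a median of 683.5 UMIs and 460.5 genes, of which 10 were shallow cells, 2 deep and 2 of low complexity. Class cells labelled microglia were thus shallow in most cases without tumor and deep in 17 of 36 cases in LGG. Cells labelled macrophages, all 12 in LGG, lay between these labels in LGG only by median complexity (0.746) and median genes (390). Their complexity ranged from 0.619 to 0.943 and their genes from 254 to 3245. Their median of 6190.5 UMIs was below that of both labels in LGG. Of the 12, 8 had low complexity, 3 were shallow and 1 was deep.

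Other deposited label sets gave the low-complexity cells a wide spread of names. Of 8 sets compared, 3 use an erythroid name anywhere in the table. The main and fine form of the second SingleR label gave it to 79 and 76 class cells, and a further fine-grained label to 54. That further label shared 52 cells with the main form, and 2 of its 54 were not named erythrocytes there. In 18 of the 99 low-complexity cells neither of these 2 gave that name, and in 0 of the 51 cells of the other profiles did either. The 5 sets without such a name put the low-complexity cells elsewhere. The second VHove label named 52 of the 99 B cells, and all 52 were erythrocytes by the second SingleR label. It named a further 20 border associated macrophages (BAM) and 18 conventional dendritic cells (cDC). The scANVI label named 87 of them TAM 1 and 10 TAM 2, whereas it named 47 of the 51 other class cells TAM 2. The eighth SCSA label, from marker lists, named 94 of the 99 plasmacytoid dendritic cells, and the annotation headed final left the same number as unknown. Each of these sets gave the same name to 7 deep and 14 shallow cells as well. The first SingleR label named 57 microglia and 35 macrophages. The deep and shallow cells were named microglia by the first SingleR label in all 51 cases and by the second in 46. Other sets did so less often. The fine-grained, SCSA and final labels each named 13 of the 24 deep and 10 of the 27 shallow cells microglia. The second VHove label named 20 deep and 13 shallow cells microglia, and 3 and 14 BAM.

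The phase names gave the class a high share of G2M, the stage before and during division, but on scores near 0. In LGG, 46 of 125 class cells were named G2M (36.8%, 28.4 to 45.9%), against 701 of 4899 other cells (14.3%, 13.3 to 15.3%). S, the stage of DNA synthesis, was given to 17 class cells (13.6%, 8.13 to 20.9%), against 29.7% of other LGG cells. Of the 91 low-complexity LGG cells 41 were named G2M and 6 S, and their median G2M score was -0.00243 and median S score -0.00402. Other LGG cells had a median G2M score of -0.0352 (upper quartile -0.00721) and a median S score of -0.0150 (upper quartile 0.0113). The low-complexity cells named G2M in LGG had a median G2M score of 0.00902, against 0.0242 in other LGG cells of that name. A G2M score over 0.1 was found in 2 of 125 class cells (1.60%, 0.194 to 5.66%), against 178 of 4899 other LGG cells (3.63%, 3.13 to 4.20%). An S score over 0.1 was found in 0 of the 150 class cells (exact upper bound 2.43%), against 489 of 12518 other cells (3.91%). With as few as 202 genes per cell, and with gene lists that are not stated, no cycling can be read from these names.

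In 1 class cell the G2M score was far from the rest. This LGG cell had a G2M score of 0.512, 8913 UMIs, 1389 genes and 0.426% mitochondrial UMIs, and the fine-grained label named it an erythrocyte and the second SingleR label a microglia. The next highest scores in the class were 0.147 in a shallow LGG cell and 0.0902 in a low-complexity LGG cell. Without tumor 7 of 19 class cells were named G2M (36.8%, 16.3 to 61.6%), against 6.70% of other cells. S was given to 4 of the 19 (21.1%, 6.05 to 45.6%), against 24.9% of other cells. In HGG 1 of 6 class cells was named G2M, against 10.7% of other cells. There 4 of 6 were named S (66.7%, 22.3 to 95.7%), against 26.7% of other cells. The highest G2M score of a class cell in those libraries was 0.0576 without tumor and 0.00205 in HGG.

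**Figure D4:**
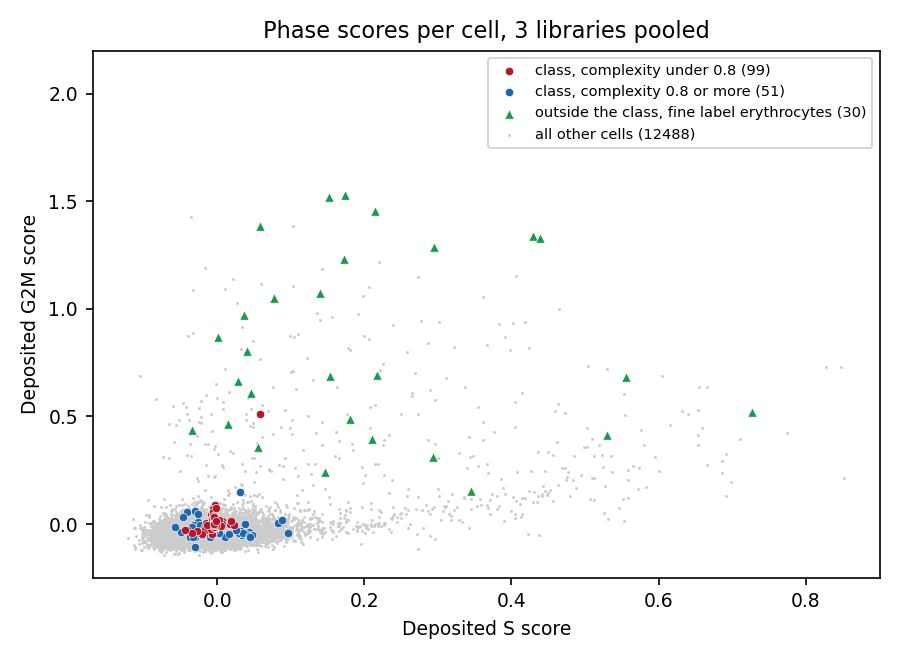
Deposited S score (x axis) against G2M score (y axis) per cell over the 3 libraries, for low-complexity class cells, the other class cells, 30 cells outside the class that a fine-grained label names erythrocytes (triangles) and the remaining 12488 cells (grey). Class cells gather at 0 with 1 at a G2M score of 0.512, while 28 of the 30 triangles lie above 0.1.

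The deposited clusterings held the class together. Of 22 clusterings, 13 had a single cluster made of the 150 cells and no other, among them resolution 1.5 with 24 clusters and resolution 5 with 53. The 2 at resolution 2.5 and 3 added 2 microglia-named LGG cells to it. The 7 at resolutions 0.1 to 0.7 put 142 or 143 of the cells in 1 cluster, with 69.3 to 92.8% of that cluster being the class. At resolution 0.1 the cluster also held 63 other cells, 49 of them of the class named Int Mo/Mac, and at 0.4 it held 11. All 99 low-complexity cells were in the leading cluster at every resolution, and the cells outside it were shallow in each case. At resolutions 0.1, 0.2, 0.3, 0.4, 0.5 and 0.7 the same 8 cells were outside, with 518 to 779 UMIs and 336 to 497 genes, and the second SingleR label named all 8 microglia. They were 1 cell without tumor, 6 LGG cells and 1 HGG cell. The finest clustering did not divide the low-complexity, deep and shallow cells. Since the name follows the cluster, this describes how the class was made and is no separate result.

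**Figure D5:**
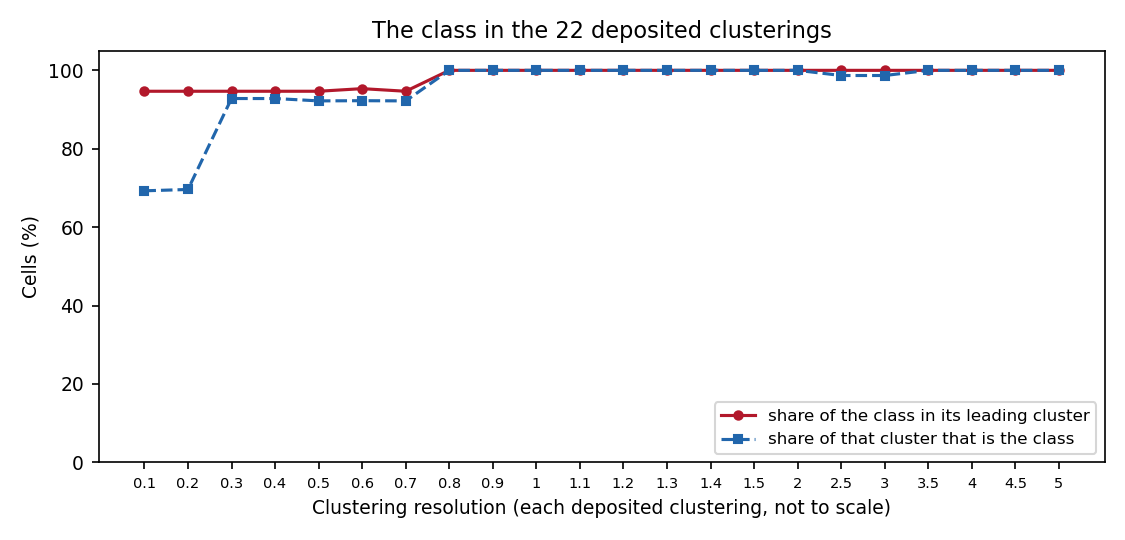
Share of the class in its leading cluster (circles) and share of that cluster that is the class (squares), in percent, for each of the 22 deposited clusterings in order of resolution. Both stand at 98.7% or more from resolution 0.8 upward, and at resolutions 0.1 and 0.2 the class is 69.3% and 69.6% of its cluster.

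All 150 class cells carried the name singlet, while 439 of the 12518 other cells (3.51%) carried a doublet name. The 0 of 150 allows a share of up to 2.00% with that name. In all, 15 cell barcodes occurred in more than 1 library, and 0 of them belonged to the class.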

How the data were processed

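A deposited table describes 12668 cells, and of its 64 columns 42 were used and 22 not used. Cell Ranger 3.0.2 and mm10 are named by the labels' protocols, and Seurat 4 by the submitters' processing notes. Per the file headers, the authors deposited UMIs and detected genes of each cell as a raw count. The deposited mitochondrial and ribosomal values are a percent of UMIs, and each deposited phase score is for S or G2M. Their gene sets are not stated. Names and 22 clusterings were taken as deposited. By which limits cells were kept before deposit is not stated.

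Library names gave the groups. Complexity, UMIs per gene and mitochondrial UMIs (percent times UMIs, rounded) were computed with Python 3.11.15, pandas 2.3.3 and SciPy 1.17.1. Without values per gene, cells could not be thinned to 1 depth, so other cells of the same library within 10% of the UMIs were used. A share of 0 was given a limit of 3 counts, or the exact upper bound where said. The class, its lists and its settings were chosen with earlier results of these data known. The split into 3 profiles, the 10% window and the limits of 250 and 220 genes, 5000 UMIs, 20 UMIs per gene, 0.5% mitochondrial UMIs and a score of 0.1 were chosen after values had been seen. Cells were described singly for HGG, with under 10 class cells, and for the highest G2M scores, picked after their values were seen. No gene was named from values.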

Additional observations from a re-analysis of the deposited data

How the results depend on the processing

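All 3 ratios of shares kept their side of 1 under each alternative tried. For LGG over no tumor (4.64), the ratio was 8.68 with at least 1000 UMIs per cell, 10.9 with the erythrocyte name of the second SingleR label, 1.48 (0.921 to 2.38) over cells other than microglia, and, in alternatives chosen after seeing the data, 9.17 for low-complexity cells, 2.00 for the other class cells and 2.87 with the fine-grained label, which also names 30 cells outside the class. For HGG over LGG (0.0588) these last 3 gave 0.0135, 0.180 and 0.161. For HGG over no tumor (0.273) it was 0.0993 over cells other than microglia, and the upper bound of its interval was over 1 in 6 of 9 alternatives. The low-complexity share moved to 86.4% in LGG with a limit of 0.85, and to 82.7% in LGG and 77.8% without tumor with at least 1000 UMIs. The same minimum put cells labelled erythrocytes at 55.6% of the class without tumor, and the fine-grained label put them at 38.4% in LGG. With at least 500 genes, 32.3% of LGG class cells were named S or G2M, against 50.4% of all. The leading cluster held 94.7 to 95.3% of the class at resolutions 0.1 to 0.7 (95.3% at 0.6), and the class was 69.3, 69.6, 92.8, 92.8, 92.2, 92.3 and 92.2% of it in that order. Of 126 alternative values 96 stayed within the interval of the reported value, including all 26 without doublet names, which change no class cell. Staying within an interval did not mean a small change. With at least 1000 UMIs, the no-tumor median UMIs went from 898 to 21375 (interval 608 to 21375). The no-tumor mitochondrial median went from 1.62% to 0.0951%. In HGG the median genes went from 759.5 to 2638.5 (interval 244 to 4440). No paired analysis was possible because each group is 1 library. The 6 class cells of HGG leave wide intervals.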

Other observations

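An erythrocyte name also occurred outside the class. The fine-grained label gave it to 30 other cells, 10 of 3544 without tumor (0.282%), 13 of 5024 in LGG (0.259%) and 7 of 4100 in HGG (0.171%), with overlapping exact intervals. These cells were named Int Mo/Mac in 28 cases and microglia in 2. They had a median of 4262 UMIs, 1309.5 genes and 2.89 UMIs per gene, against 15700.5 UMIs, 247 genes and 62.7 UMIs per gene in the 54 class cells of that name. Their median G2M score was 0.687 and 28 of 30 were over 0.1, against 0.00747 and 1 of 54 in the class. Of the 30, 3 carried a doublet name. The second SingleR label gave the erythrocyte name to 5 cells outside the class, 0 without tumor, 4 in LGG and 1 in HGG, all named Int Mo/Mac and 4 of them with a G2M score over 0.1, and 3 of the 5 were among the 30. The one class cell with a G2M score of 0.512 had 6.42 UMIs per gene, the lowest of the low-complexity cells.

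Plasma cells devote much of their RNA to immunoglobulin. The 5 cells that the fine-grained label named plasma cells had a median complexity of 0.794, 3 of them under 0.8 and 0 under 0.75.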
